A study of Homo sapiens with 30 samples.

Results

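The 6 human Iroquois genes lie in 2 clusters of 3, IRX4, IRX2 and IRX1 on chromosome 5 and IRX3, IRX5 and IRX6 on chromosome 16. To describe the repressive histone marks over both clusters, each was taken from its first to its last IRX gene in the GENCODE annotation with 100 kb added on each side, and every peak that touched this window was a member. The chromosome 5 window was chr5:1777527-3701517 (hg19, 1.92 Mb) and the chromosome 16 window chr16:54217216-55464668 (1.25 Mb). Both windows held 614 of the 102921 H3K27me3 peaks of the control, 587 of 86099 upon depletion of LINC00641 (ΔLINC00641) and 639 of 98401 upon depletion of SETD5-AS1 (ΔSETD5-AS1). They held 288 of the 84170 H3K9me3 peaks of the control and 309 of 60273 upon depletion of LINC00662 (ΔLINC00662).

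The study profiled H3K27me3 and H3K9me3 by ChIP-seq in HEK293T, a line of human embryonic kidney origin that expresses SV40 large T antigen. Cells received an antisense oligonucleotide (ASO), a short DNA-like molecule that lowers the amount of its target RNA, and were fixed 48 h later. H3K27me3 was measured with a negative control ASO (NC), with a LINC00641 ASO and with a SETD5-AS1 ASO, and H3K9me3 was measured with NC and with a mix of LINC00662 ASOs. Immunoprecipitated and input (sheared) chromatin were sequenced in triplicate for each of these 5 conditions, so that the 30 samples form 10 groups of 3 replicates. The authors merged the replicates of a condition and called 1 peak list on them. The spread between replicates is therefore unknown for every value given here, and no test between conditions was possible. The H3K27me3 comparisons share their NC list. The amount of each targeted RNA, and of the IRX RNAs, was not analysed here.

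IRX genes encode homeodomain transcription factors of the TALE class, in which the homeodomain carries a short loop of additional amino acids. They pattern embryonic tissues such as the neural tube, heart, limb and kidney, and neighbours in a cluster often share distant enhancers. H3K27me3 is laid down by Polycomb repressive complex 2 and typically covers silent developmental genes in broad domains, while H3K9me3 marks heterochromatin, repeats and many KRAB zinc finger genes. Promoters of genes such as these are usually rich in CpG dinucleotides, and Polycomb complexes are recruited to such DNA in mammals.

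The sequence just before each start site of the chromosome 5 cluster is shown because no peak of any list lay over these sites. The distance to the nearest peak differed between genes, marks and lists. The 150 bases before the 5′ end of IRX4, IRX2 and IRX1 are printed from GRCh37 in the direction of transcription, with every CpG in capitals.
IRX4, chr5:1887351-1887500, minus strand: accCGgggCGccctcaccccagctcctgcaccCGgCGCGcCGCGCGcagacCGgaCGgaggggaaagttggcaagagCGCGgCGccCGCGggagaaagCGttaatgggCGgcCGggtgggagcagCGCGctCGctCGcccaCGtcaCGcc
IRX2, chr5:2751792-2751941, minus strand: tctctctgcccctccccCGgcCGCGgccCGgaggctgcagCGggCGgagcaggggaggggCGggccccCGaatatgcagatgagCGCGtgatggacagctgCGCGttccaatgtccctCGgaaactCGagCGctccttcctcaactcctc
IRX1, chr5:3595796-3595945, plus strand: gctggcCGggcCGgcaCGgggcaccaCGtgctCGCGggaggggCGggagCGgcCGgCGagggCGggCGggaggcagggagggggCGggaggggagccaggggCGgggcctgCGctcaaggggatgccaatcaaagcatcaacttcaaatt
The 150 bases centred on the summits of the strongest H3K27me3 and H3K9me3 peaks of the chromosome 16 NC lists are shown beside them, since they are the highest by −log10 q in a cluster with few peaks of either mark.
H3K27me3 NC, chromosome 16, chr16:55453267-55453416, plus strand: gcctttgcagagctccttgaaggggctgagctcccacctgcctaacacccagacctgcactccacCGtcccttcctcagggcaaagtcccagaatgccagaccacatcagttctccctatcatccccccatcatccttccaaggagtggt
H3K9me3 NC, chromosome 16, chr16:55225898-55226047, plus strand: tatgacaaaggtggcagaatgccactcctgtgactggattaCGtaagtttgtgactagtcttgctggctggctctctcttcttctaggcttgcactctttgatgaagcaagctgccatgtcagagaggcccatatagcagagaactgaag
The sequences before the start sites held 24 CpG for IRX4, 15 for IRX2 and 15 for IRX1. The same 150 bases held a median of 9 CpG over 20095 protein-coding genes, and fewer than IRX4 in 94.9% of them and fewer than IRX2 and IRX1 in 69.8%.

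The clusters differed in H3K27me3. In NC, 610 peaks covered 579 kb of the chromosome 5 window, or 30.1% of its length, whereas 4 peaks covered 2.43 kb, or 0.195%, of the chromosome 16 window. The autosomes were covered at 1.94%, so the chromosome 5 cluster was 15.5 times and the chromosome 16 cluster 0.1005 times the autosomal share. In ΔLINC00641, 582 peaks covered 27.2% on chromosome 5 and 5 peaks covered 0.242% on chromosome 16. In ΔSETD5-AS1, 631 peaks covered 25.8% and 8 peaks covered 0.312%. The order of the clusters was the same in the 3 lists, with no value of one near a value of the other.

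H3K9me3 was also denser on chromosome 5. In NC, 262 peaks covered 144 kb, or 7.48%, of the chromosome 5 window, and 26 peaks covered 14.4 kb, or 1.16%, of the chromosome 16 window, beside 1.70% of the autosomes. In ΔLINC00662, 294 peaks covered 7.87% on chromosome 5 and 15 peaks covered 0.628% on chromosome 16, beside 1.03% of the autosomes. The chromosome 16 cluster was below the autosomal share for both marks in each of the 5 lists.

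**Figure D1:**
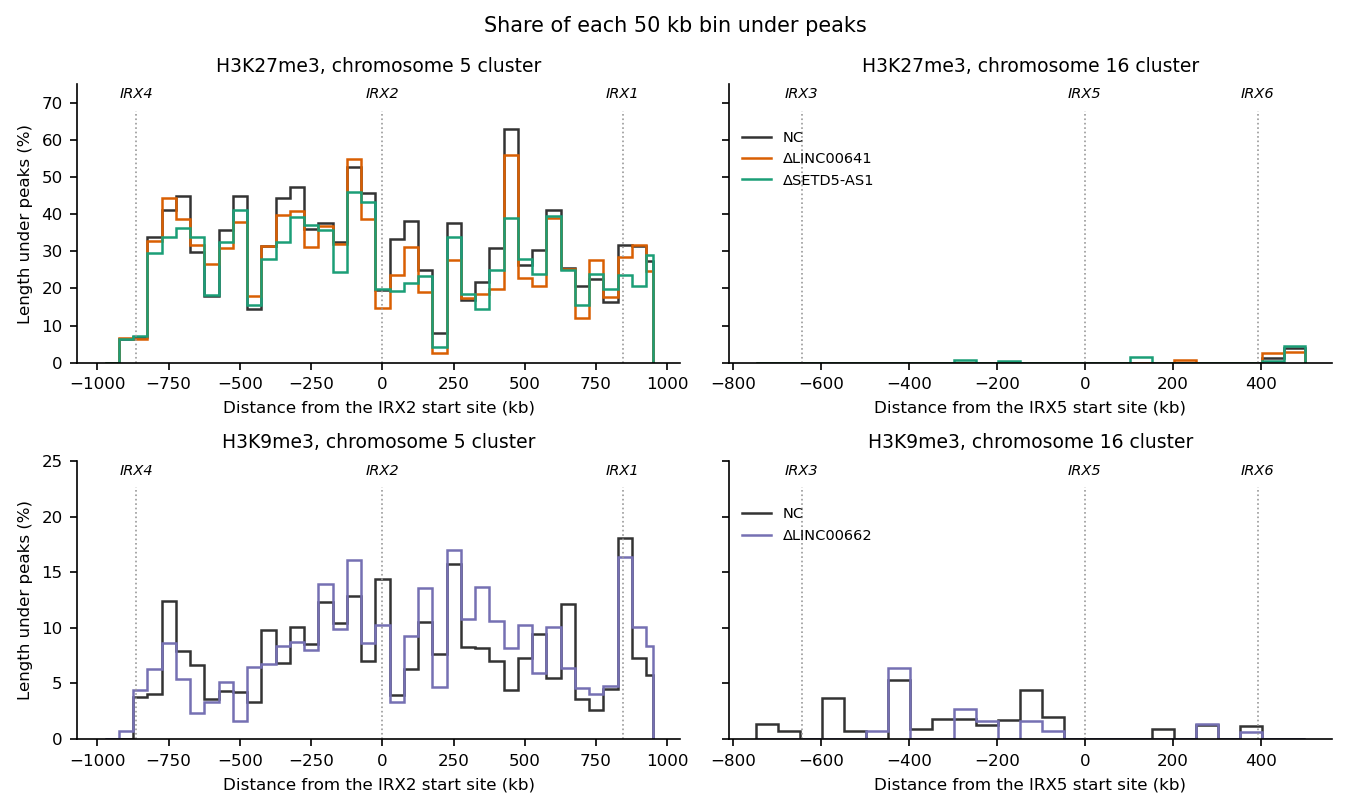
Share of each 50 kb bin under peaks (vertical axis, percent) against the distance from the IRX2 start site (left) or the IRX5 start site (right) in kb, for H3K27me3 (upper) and H3K9me3 (lower). Lines are the pooled lists and dotted lines the IRX start sites. On chromosome 5 the H3K27me3 NC line reaches 63.1% between IRX2 and IRX1, and on chromosome 16 no H3K27me3 NC bin passes 1.19% among the full bins.

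Along the chromosome 5 window H3K27me3 was spread over nearly the whole length, with a peak in 37 of 38 full bins of 50 kb in each list. The median bin was covered at 31.5% in the NC list, 28.1% in ΔLINC00641 and 24.7% in ΔSETD5-AS1. More than 25% of the bin was covered in 26 bins of NC, 23 of ΔLINC00641 and 18 of ΔSETD5-AS1. The highest bin in NC, at 63.1%, began 426 kb past the IRX2 start site, between IRX2 and IRX1, and was also the highest in ΔLINC00641 at 56.0%. The lists held a dense series of peaks rather than a single block here. Neighbouring NC peaks were separated by a median of 0.912 kb. All lists were called as narrow peaks, and whether the calling divided longer stretches of the mark was not tested. With peaks within 1 kb joined, the 610 peaks of NC became 292 domains, the longest of 18.8 kb at chr5:2378604-2397403, 354 kb from the IRX2 start site. The longest in ΔLINC00641 spanned 32.4 kb at chr5:2617448-2649809, and the longest in ΔSETD5-AS1 18.9 kb at chr5:2459992-2478901. All of these lay in intergenic sequence between IRX4 and IRX2.

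The density was low on both sides of IRX4. Of the 100 kb outside IRX4, which hold the mitochondrial protein genes MRPL36 (a ribosomal subunit) and NDUFS6 (a complex I subunit), 3.15% was covered in NC, whereas 35.1% was covered between IRX4 and IRX2, 28.3% between IRX2 and IRX1, and 32.2% of the 100 kb outside IRX1. In ΔLINC00641 these shares were 3.35%, 33.6%, 23.5% and 30.7%, and in ΔSETD5-AS1 3.17%, 31.6%, 23.2% and 24.7%. The rise did not lie at IRX4 itself. The 50 kb bin that holds IRX4 and the first part of the space towards IRX2 was covered at 6.79% in NC, 6.24% in ΔLINC00641 and at 7.13% in ΔSETD5-AS1, and the next bin towards IRX2 at 33.8%, 32.7% and 29.6%. The dense stretch thus began between IRX4 and IRX2, beyond the bin of IRX4, in each list, and coverage stayed high over the 100 kb outside IRX1.

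The gene bodies did not follow the space between them. IRX4 was covered by H3K27me3 over 28.7% of its 9.82 kb in the NC list, 25.3% in ΔLINC00641 and 24.5% in ΔSETD5-AS1. IRX2 had no H3K27me3 peak in its 5.83 kb in any list. IRX1 had none in its 5.57 kb in NC and ΔSETD5-AS1, and in ΔLINC00641 a peak reached 0.341% of it at its 3′ end. IRX2 and IRX1 were therefore islands without H3K27me3 peaks inside a covered region.

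**Figure D2:**
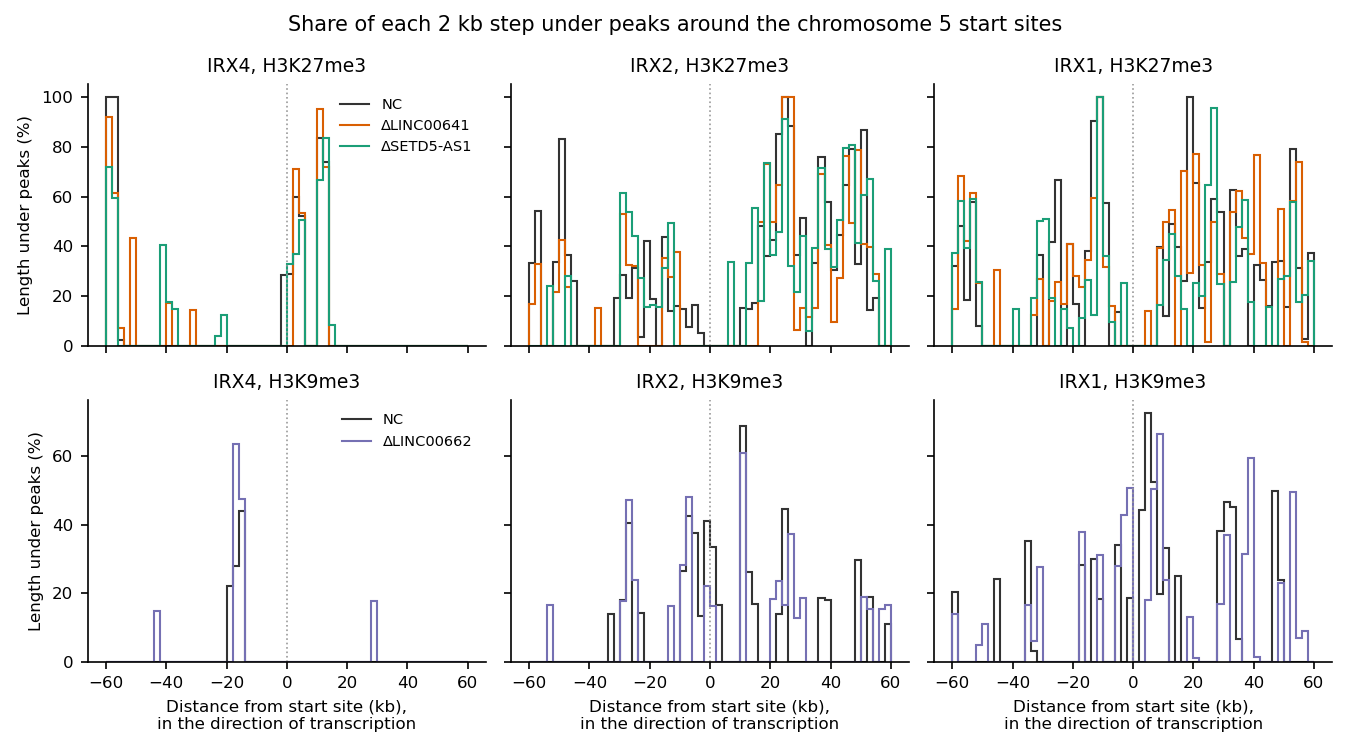
Share of each 2 kb step under peaks (vertical axis, percent) from 60 kb before to 60 kb after the start sites of IRX4, IRX2 and IRX1, in the direction of transcription, for H3K27me3 (upper) and H3K9me3 (lower). Lines are the pooled lists. H3K27me3 is low around the IRX2 and IRX1 start sites and rises on both sides, whereas the H3K9me3 lines have peaks within 10 kb of both.

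The same was seen around the start sites. For IRX2, H3K27me3 covered 4.40% of the 20 kb centred on the start site in the NC list, 0% in ΔLINC00641 and 3.35% in ΔSETD5-AS1, whereas the sequence from 10 to 60 kb away was covered at 31.5%, 26.4% and 29.0%. The peak-free interval that held the IRX2 start site was 15.0 kb long in the NC list, 28.0 kb in ΔLINC00641 and 18.5 kb in ΔSETD5-AS1. It was among the 6 longest such intervals of the window in each of the 3 lists. For IRX1 the 20 kb were covered at 11.1% in the NC list, 10.1% in ΔLINC00641 and 8.74% in ΔSETD5-AS1, and the sequence from 10 to 60 kb away at 29.9%, 30.3% and 24.98%. The interval around the IRX1 start site measured 12.7 kb, 13.2 kb and 12.6 kb, and was not among the 6 longest in any list. Each list also had intervals longer than both of these with no IRX start site inside, such as 20.8 kb at chr5:3544103-3564876 in NC. The islands at IRX2 and IRX1 were thus present in all 3 lists, and that at IRX2 was longer in both knockdown lists than in NC.

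The 2 NC peaks nearest IRX2 were weak. The first, at chr5:2755687-2756118, lay 4.22 kb upstream with 16 fragments at its summit and a fold enrichment of 3.503, which is the fragments at the summit over the local input, each with 1 added. The other, at chr5:2759638-2760085, had 14 fragments and a fold enrichment of 3.09. Neither had an overlapping peak in ΔLINC00641 or ΔSETD5-AS1. Peaks of 14 and 16 fragments are imprecise. Knockdown fragments are not known where no peak was called, so the loss of these peaks was not tested against counting error.

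IRX4 had the reverse arrangement. Its 20 kb were covered by H3K27me3 at 17.0% in the NC list, 12.4% in ΔLINC00641 and 12.04% in ΔSETD5-AS1, whereas the sequence from 10 to 60 kb away was covered at 7.20%, 8.06% and 7.58%. In NC, peaks lay at both sides of the start site, at chr5:1886181-1886755 in an intron of IRX4 with 27 fragments and at chr5:1887510-1888082 in an intron of the divergent lncRNA CTD-2194D22.4 with 24 fragments. The intronic peak was called again in ΔSETD5-AS1 with 25 fragments, and neither had an overlapping peak in ΔLINC00641. The peak-free interval at the start site measured 0.754 kb in the NC list, 33.7 kb in ΔLINC00641 and 22.3 kb in ΔSETD5-AS1, but a space of 55.2 kb began in NC just beyond the outer of these peaks. The lengths therefore turned on 2 peaks of under 30 fragments.

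The strongest peak at IRX4 lay in the gene body. In NC it spanned chr5:1882303-1884547 with 45 fragments over a local input of 8.21, a fold enrichment of 4.996. In ΔLINC00641 the overlapping peak had 51 fragments over an input of 16.7, a fold enrichment of 2.94. The fragments relative to the genome-wide level of each list were 1.15 times those of NC (95% interval 0.758 to 1.76, counting error only), so the lower fold enrichment came with a higher local input and not with fewer fragments. In ΔSETD5-AS1 the same sequence held 2 peaks, with 40 and 42 fragments over inputs of 14.6 and 13.5 and fold enrichments of 2.62 and 2.96.

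H3K9me3 was present at IRX2 and IRX1. In NC, 21.1% of the 20 kb around the IRX2 start site and 24.2% around the IRX1 start site lay under H3K9me3 peaks, against 7.07% and 8.55% of the sequence from 10 to 60 kb away. In ΔLINC00662 these shares were 11.4% at IRX2 and 25.6% at IRX1, against 7.51% and 8.43%. In NC, H3K9me3 peaks were thus denser near both genes than farther away. In ΔLINC00662 this held for IRX1, but for IRX2 it depended on the length taken, since the 5 kb on each side of its start site were covered at 7.63%, and no peak within 10 kb had a −log10 q of 5 or more. IRX4 had no H3K9me3 peak within 10 kb of its start site in either list, and the nearest lay 14.2 kb away in both. Among 20098 protein-coding genes, the IRX1 share was higher than that of 98.3% in NC and 99.2% in ΔLINC00662, and the IRX2 share higher than that of 98.0% and 97.4%.

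The H3K9me3 peaks at IRX2 were called on few fragments. In the gene, the stronger NC peak lay in an intron at chr5:2749881-2750548 with 30 fragments over a local input of 5.21, a fold enrichment of 4.99. The peak in ΔLINC00662 that overlapped it, at chr5:2750358-2750681, had 18 fragments over an input of 6.90 and a fold enrichment of 2.41. A second NC peak, at chr5:2749223-2749550 in coding sequence, had 20 fragments, a −log10 q of 1.34 and no partner in ΔLINC00662. The covered share of the gene was 17.1% in NC and 5.55% in ΔLINC00662. Upstream, NC peaks lay over the exons of the divergent lncRNA IRX2-DT, at chr5:2752426-2752790 with 24 fragments and at chr5:2753337-2754059 with 21, and a ΔLINC00662 peak of 23 fragments lay between them at chr5:2752848-2753286 without touching either. IRX2-DT thus had a peak within 1 kb of its start site in both lists, but not the same peak.

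At IRX1 less of the gene was covered by H3K9me3 in ΔLINC00662 than in NC, whereas the share of its 20 kb was similar (25.6% and 24.2%). In NC, 37.9% of the gene was covered by 2 peaks, at chr5:3598937-3599818 with 22 fragments and at chr5:3600286-3601737 with 24, and in ΔLINC00662 a single peak of 18 fragments at chr5:3600297-3600658 covered 6.50%. Within 10 kb of the start site the number of peaks was 7 in NC and 8 in ΔLINC00662. NC also had peaks past the 3′ end, at chr5:3602616-3603664 with 27 fragments and at chr5:3605554-3606132 with 23. Peaks of so few fragments are imprecise. The longest H3K9me3 domain of the NC window (peaks within 1 kb joined) was 4.73 kb at chr5:3598937-3603664 and overlapped IRX1, and the longest of ΔLINC00662 was 4.99 kb at chr5:3602038-3607022, just past its 3′ end. Counting only peaks whose −log10 q reached 5, the covered share of the 20 kb around IRX1 was 0% in NC and 6.46% in ΔLINC00662, so most H3K9me3 at IRX1 came from weak peaks.

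The marks met on the same sequence on chromosome 5. In NC, 59.7 kb lay under peaks of both marks, which was 41.4% of the H3K9me3 length and 10.3% of the H3K27me3 length of the window. Of the 262 H3K9me3 peaks, 143 (54.6%, Wilson 95% interval 48.5 to 60.5%) touched an H3K27me3 peak, against 9.93% of H3K9me3 peaks on the autosomes. H3K27me3 covered 30.1% of the window and 1.94% of the autosomes, so contact by position alone also differed between them. On chromosome 16, 0 of 26 H3K9me3 peaks touched an H3K27me3 peak, with a Wilson upper bound of 12.9%. Bulk ChIP-seq cannot tell whether both marks were on the same chromosome copies or in different cells.

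In 4 of the 5 lists, the peaks of the chromosome 5 cluster had a higher local input than autosomal peaks. The median local input of its H3K27me3 NC peaks was 1.28 times the genome-wide level, against 1.07 for autosomal peaks, and 15.7% of its peaks were at the genome-wide level, against 45.4%. The medians were 1.36 against 1.14 in ΔLINC00641, 1.27 against 1.07 in ΔSETD5-AS1 and 1.54 against 1.32 in H3K9me3 NC, whereas in ΔLINC00662 both were 1.56. The part of local input in the density of peaks was not tested. The windows had similar GC content (45.8% on chromosome 5 and 43.8% on chromosome 16), but the H3K27me3 NC peaks on chromosome 5 had a median GC content of 50%, against 45.2% for autosomal peaks, and the H3K9me3 NC peaks 51.9% against 47.5%.

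The strongest peak by −log10 q was at one place in 4 of the 5 lists. In H3K9me3 NC it spanned chr5:2145696-2146098, in intergenic sequence 259 kb upstream of IRX4, with 206 fragments over a local input of 82.8, a fold enrichment of 2.47. The input at this place was 13.1 to 14.3 times the genome-wide level in the H3K27me3 lists and 19.3 and 20.3 times in the H3K9me3 lists. In H3K27me3 NC its peak ranked 2 in the window. Fragments were piled up there in the input of both marks and in each condition, so its rank does not compare with that of peaks at ordinary input. The 150 bases around its summit are shown because they hold a tandem repeat. Over the 1411 bp that the 5 lists called, 68.8% of bases equalled the base 40 bp further on, against a median of 32.9% over all shifts tried.
Repeat upstream of IRX4, chr5:2145780-2145929, plus strand: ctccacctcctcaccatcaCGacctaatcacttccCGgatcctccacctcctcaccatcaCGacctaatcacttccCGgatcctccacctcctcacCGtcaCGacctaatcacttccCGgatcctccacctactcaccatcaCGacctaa
The strongest H3K27me3 NC peak on chromosome 5 lay at ordinary input. It spanned chr5:1971691-1974388, 84.9 kb upstream of IRX4 in an intron of the lncRNA ENSG00000248994, with 53 fragments over a local input of 6.22, a fold enrichment of 7.48. The overlapping ΔLINC00641 peak had 48 fragments over 5.56 and a fold enrichment of 7.47. In ΔSETD5-AS1 the same sequence held 2 peaks of 33 and 37 fragments with fold enrichments of 4.58 and 4.75. This peak was thus called in each H3K27me3 list and was split in ΔSETD5-AS1.

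On chromosome 16 the few H3K27me3 peaks were not at the IRX genes. In NC all 4 lay past IRX6, 1 between IRX6 and the matrix metalloproteinase gene MMP2 and 3 in introns of MMP2. The strongest, at chr16:55452617-55453467, lay 95.2 kb from the IRX6 start site, with 22 fragments and a fold enrichment of 3.88, and its summit sequence is printed above. In NC, IRX3, IRX5 and IRX6 lay in a single interval of 2326 kb with no H3K27me3 peak. Inside the window that interval was divided in ΔLINC00641 and ΔSETD5-AS1 by 1 and 4 peaks of 14 to 20 fragments, the nearest of them 126 kb from the IRX5 start site. None of the 20 lncRNA genes of the window, among them CRNDE, had a peak of either mark within 1 kb of its start site in any list. Of 18592 lncRNA genes on chromosomes 1 to 22 and X, 5.51% to 6.60% had one, depending on the list. The 20 genes are too few to be set apart from these shares.

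H3K9me3 on chromosome 16 lay mainly between IRX3 and IRX5, where 21 of the 26 NC peaks and 12 of the 15 ΔLINC00662 peaks were found. The nearest peak to a start site was 40.7 kb from IRX3, 63.1 kb from IRX5 and 26.0 kb from IRX6 in NC. The strongest NC peak, at chr16:55225580-55226193, had 35 fragments over a local input of 5.21, a fold enrichment of 5.80, and no overlapping peak in ΔLINC00662, in which the nearest peak was 6.89 kb away. The 150 bases at its summit are printed above. The strongest ΔLINC00662 peak, at chr16:54565913-54566834, had 23 fragments and a fold enrichment of 3.94, and it overlapped an NC peak of 27 fragments.

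Peaks at other start sites on chromosome 5 were at lncRNA genes. Of the 19 lncRNA genes in the window, 11 had an H3K27me3 peak within 1 kb of the start site in the NC list, 8 in ΔLINC00641 and 10 in ΔSETD5-AS1, beside 6.45%, 6.51% and 6.60% of 18592 lncRNA genes on chromosomes 1 to 22 and X. For H3K9me3, 6 had a peak there in each list, beside 6.55% of all lncRNA genes in NC and 5.51% in ΔLINC00662. IRX4-AS1, ENSG00000248597, ENSG00000249731, LSINCT5, ENSG00000248137 and LINC01377 had an H3K27me3 peak in each of the 3 lists. CTD-2194D22.4, ENSG00000259757, LINC01019 and LINC02162 had one in NC and ΔSETD5-AS1 and not in ΔLINC00641, ENSG00000289075 had one in NC alone, and LINC01017 and ENSG00000248736 had one in ΔLINC00641 alone. H3K9me3 peaks were at IRX2-DT, ENSG00000248736 and ENSG00000259603 (antisense to IRX1) in both lists, at LSINCT5, ENSG00000259757 and ENSG00000289075 in NC alone, and at ENSG00000248137, LINC01377 and LINC01019 in ΔLINC00662 alone. MRPL36 and NDUFS6 had no peak of either mark there. In NC, H3K27me3 covered 30.1% of the window and 1.94% of the autosomes, and H3K9me3 7.48% and 1.70%. Contact with a start site by position alone therefore also differs from the background, and its part was not tested.

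The IRX genes were set beside the other TALE genes. None of the 12 MEIS, PBX, PKNOX, TGIF and MKX genes had an H3K27me3 peak within 1 kb of the start site in any list, whereas 1 of 6 IRX genes (IRX4) had one in the NC list, 0 in ΔLINC00641 and 1 in ΔSETD5-AS1, beside 7.88%, 8.65% and 7.88% of all protein-coding genes. The highest H3K27me3 share of 20 kb among the 12 genes was 2.09%, at MEIS3 in NC. For H3K9me3, MKX, a regulator of tendon, had a peak within 1 kb in NC and in ΔLINC00662, whereas IRX2 and IRX1 had one in NC and IRX1 in ΔLINC00662. The background was 5.71% and 4.67% of protein-coding genes. H3K9me3 covered 12.3% of the 20 kb around the MKX start site in NC, below the shares at IRX2 and IRX1.

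The protein-coding genes most alike were found by the Euclidean distance over the 5 lists of the share of 20 kb under peaks. For IRX4 they were CRIP2, SYT5 and PSD2, at 1.61, 1.72 and 1.99 percentage points. For IRX2 they were KRTAP10-5, IL36A and KRTAP4-6, at 3.14, 3.27 and 4.38. For IRX1 they were USP17L11, ZNF264 and FAM90A27P, at 6.67, 7.35 and 8.22. The nearest gene was thus farther from IRX1 than from IRX4. IRX3, IRX5 and IRX6 were at 0 in all 5 lists, as were most genes, and had no such neighbours.

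To ask whether depletion of each lncRNA changed the marks over the clusters, knockdown and NC lists were compared peak by peak. NC peaks that shared at least 1 bp with a knockdown peak were called retained, and knockdown peaks that shared none with an NC peak were called new. In ΔLINC00641, 444 of the 610 chromosome 5 NC peaks were retained (72.8%, Wilson 95% interval 69.1 to 76.2%), against 53.2% of the whole list, and 128 of 582 peaks were new (21.99%), against 35.5%. In ΔSETD5-AS1, 432 were retained (70.8%, 67.1 to 74.3%), against 56.3%, and 158 of 631 were new (25.04%), against 39.5%. These intervals hold for counting error only and treat each peak as independent. In both knockdowns the retained share was higher, and the new share lower, in the cluster than over the list. Knockdown peaks covered 27.2% and 25.8% of the window but 1.54% and 1.70% of the autosomes, and its NC peaks were wider (median 645 bp against 516 bp), so that overlap by position alone also differs between them. Its part in the result was not tested. With an overlap of at least 50% of the NC peak, the shares were 53.3% against 39.0% of the list in ΔLINC00641 and 51.3% against 41.1% in ΔSETD5-AS1. For the NC peaks whose −log10 q reached 5, 85.8% were retained in ΔLINC00641, against 77.8% of such peaks in the whole list, and 85.3% in ΔSETD5-AS1, against 79.4%. The excess over the list was smaller among these stronger peaks.

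**Figure D3:**
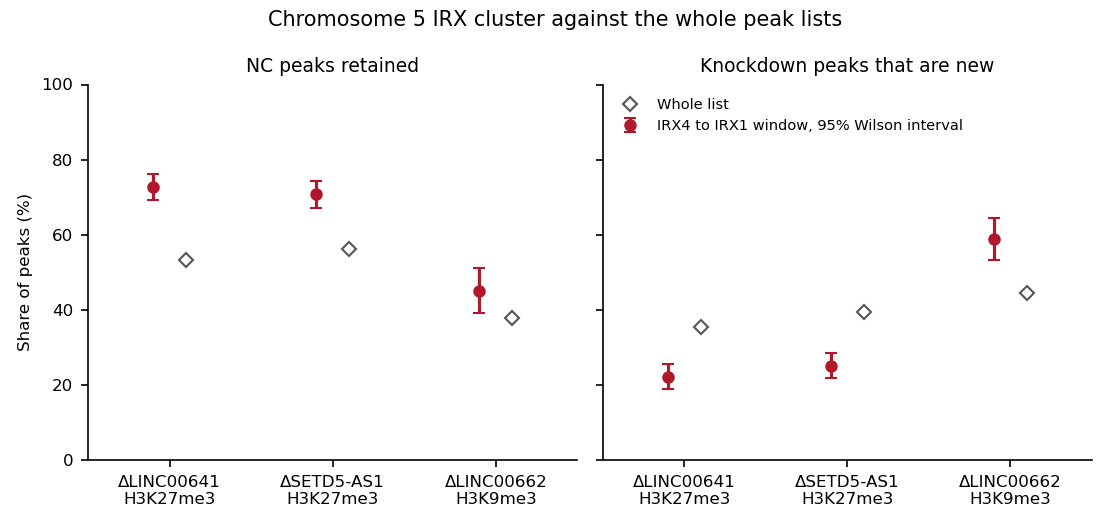
Share of NC peaks retained (left) and of knockdown peaks that are new (right), in percent, for the 3 comparisons. Filled points with bars are the chromosome 5 IRX window with Wilson 95% intervals, which cover counting error only, and open diamonds are the whole lists. The H3K27me3 points lie above the diamonds on the left and below them on the right, whereas the H3K9me3 points lie above them in both.

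The length under H3K27me3 peaks on chromosome 5 was 0.905 times that of NC in ΔLINC00641 (524 kb against 579 kb), beside 0.720 on the whole chromosome and 0.794 on the autosomes. In ΔSETD5-AS1 it was 0.859 times (497 kb), beside 0.831 and 0.875. Over peaks of any GC content, the cluster therefore lost less length than the autosomes in ΔLINC00641 and about as much in ΔSETD5-AS1. This did not hold among peaks of like GC content, described below. Below 45% GC the ratio was 0.463 against 0.591 over all peaks in ΔLINC00641, and 0.507 against 0.754 in ΔSETD5-AS1. At 55% GC or more it was 1.42 against 1.32 in ΔLINC00641, and 1.07 in both in ΔSETD5-AS1. The decrease was unequal along the cluster in ΔLINC00641, where the ratio was 0.958 between IRX4 and IRX2 and 0.830 between IRX2 and IRX1, with 79.6% (74.6 to 83.8%) and 66.5% (60.7 to 71.9%) of peaks retained. In ΔSETD5-AS1 the ratios were 0.899 and 0.820, with 75.8% (70.5 to 80.4%) and 67.6% (61.9 to 72.9%) retained. The segment between IRX2 and IRX1 was thus the lower of the pair in both, each against the same NC list. Segments were compared over peaks of any GC content, and the part of GC content in their difference was not tested.

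Lost peaks were narrow and weak, which the overlap rule and the calling threshold favour in any comparison. The 166 NC peaks lost in ΔLINC00641 had a median width of 407 bp and 17 fragments, against 779 bp and 21 fragments for the 444 retained. The 178 lost in ΔSETD5-AS1 had 447 bp and 17 fragments, against 811 bp and 21. Joining overlapping H3K27me3 peaks of the 3 lists gave 713 regions, of which 296 (41.5%) were in all 3, with a median length of 1738 bp, and 89 were found in NC alone, 76 in ΔLINC00641 alone and 97 in ΔSETD5-AS1 alone, with medians of 380, 386 and 377 bp. Regions shared by the 3 lists held 621 kb, and the regions of a single list were short in NC as in both knockdowns. Joining peaks of several lists lengthens a region, so shared and single-list regions do not compare in length.

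Among peaks paired 1 to 1, strength changed little. A pair needs a call in both lists, so peaks that were lost, split or joined do not enter. The largest decreases may therefore be missing from these pairs, and from the H3K9me3 pairs below. In ΔLINC00641, 281 pairs on chromosome 5 had a median log2 fold enrichment ratio of -0.03 (order-statistic 95% interval -0.10 to 0.00), and 21 pairs (7.47%) were lower by at least 1.5-fold, against 6.29% of all pairs, and 16 (5.69%) higher, against 7.54%. In ΔSETD5-AS1 the median over 258 pairs was -0.12 (-0.19 to -0.05), beside -0.08 on the autosomes, and 32 pairs (12.4%) were lower, against 8.65%, and 10 (3.88%) higher, against 4.57%. With fragments, scaled to the genome-wide level, used instead, the ΔLINC00641 median was 0.10, so its direction depended on the measure. The shares in ΔLINC00641 were near the background, and in ΔSETD5-AS1 the lower pairs were above it. Counting error alone was wide for a single pair. The 95% interval of the fragment ratio, scaled to the genome-wide levels, held 1 in 280 of 281 pairs and in 254 of 258 pairs, and the 4 other ΔSETD5-AS1 pairs were lower.

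The strongest peaks without a partner lay between 0.246 and 3.32 kb from a peak of the other list. Of the NC peaks lost in ΔLINC00641, the one of highest −log10 q was at chr5:2771002-2771376, 19.4 kb upstream of IRX2, with 28 fragments and a fold enrichment of 5.26, and a ΔLINC00641 peak lay 3.32 kb away. In ΔSETD5-AS1 it was at chr5:2670839-2671511, 80.8 kb downstream of the IRX2 start site, with 30 fragments and a fold enrichment of 5.62, and a peak lay 0.455 kb away. The strongest new peaks were at chr5:2242094-2243017 in ΔLINC00641 (25 fragments, 1.32 kb from an NC peak) and at chr5:3095834-3096963 in ΔSETD5-AS1 (26 fragments, 0.246 kb away).

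On chromosome 16, 3 of 4 H3K27me3 NC peaks were retained in ΔLINC00641 and 2 of 4 in ΔSETD5-AS1. The peak lost in ΔLINC00641 was at chr16:55455145-55455447 with 12 fragments, and the stronger of those lost in ΔSETD5-AS1 at chr16:55451325-55452011 with 15, both in introns of MMP2. The strongest new peaks were at chr16:55186773-55187066 with 17 fragments in ΔLINC00641 and at chr16:55097177-55097475 with 19 in ΔSETD5-AS1, 217 kb and 307 kb from the nearest NC peak. With 4 to 8 peaks per list no change could be read from these counts.

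H3K9me3 was compared in the same way in ΔLINC00662. Of the 262 NC peaks 118 were retained (45.04%, 39.1 to 51.1%), against 37.9% of the whole list, and 173 of 294 peaks were new (58.8%, 53.1 to 64.3%), against 44.4%. The covered length was 1.05 times that of NC, beside 0.606 on the whole chromosome and 0.602 on the autosomes, and peak number was 1.12 times, beside 0.723 on both. The ratio was 0.960 between IRX4 and IRX2 and 1.16 between IRX2 and IRX1. The cluster thus kept its H3K9me3 length while the list as a whole became shorter. Counted at any −log10 q, most of its ΔLINC00662 peaks overlapped no NC peak. The direction of the length ratio depended on the peaks counted. It was 0.833 for peaks whose −log10 q reached 5 in both lists and 1.65 for equal numbers of the strongest peaks. For the NC peaks whose −log10 q reached 5, 36 of 58 (62.1%, 49.2 to 73.4%) were retained, against 55.3%. Of the 61 ΔLINC00662 peaks that reached it, 26 (42.6%) were new.

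The 106 H3K9me3 pairs on chromosome 5 had a median log2 fold enrichment ratio of 0.13 (0.00 to 0.24), beside 0.03 on the autosomes, and it was -0.055 when both peaks of a pair had a −log10 q of 5 or more. Of these pairs 15 (14.2%) were higher by at least 1.5-fold, against 10.4% of all pairs, and 9 (8.49%) lower, against 8.78%. The interval of the fragment ratio held 1 in 105 of 106 pairs. The lost peak with the largest −log10 q, at chr5:2436630-2436956, 315 kb from IRX2, had 33 fragments and a fold enrichment of 5.09, and the strongest new peak, at chr5:3093673-3093997, had 29 and 4.65. A peak of the other list lay 5.94 kb from the lost peak and 0.608 kb from the new one. Joining the H3K9me3 peaks of both lists gave 432 regions, of which 115 (26.6%) were in both, 144 in NC alone and 173 in ΔLINC00662 alone.

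On chromosome 16 the covered length in ΔLINC00662 was 0.542 times that of NC, beside 0.675 on the whole chromosome and 0.602 on the autosomes, and 5 of 26 peaks were retained (19.2%, 8.51 to 37.9%), against 37.9% of the list. The largest lost peak was the strongest NC peak described above, and the strongest new peak, at chr16:55260010-55260363, 98.0 kb upstream of IRX6, had 19 fragments and a fold enrichment of 4.44. The ratio was thus near that of the autosomes on chromosome 16, and above it on chromosome 5, where it was 1.05. No test of the difference between the clusters was possible without replicates.

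GC content of the peaks moved with these comparisons, inside the cluster as in the whole lists. Peaks were split by their own GC content at 45, 50 and 55%, a split chosen after the data had been seen. On chromosome 5, the covered length in ΔLINC00641 relative to NC was 0.463 below 45% GC, 0.743 from 45 to 50%, 1.06 from 50 to 55% and 1.42 at 55% or more, and over all peaks of chromosomes 1 to 22 and X it was 0.591, 0.980, 1.22 and 1.32. In ΔSETD5-AS1 the cluster ratios were 0.507, 0.739, 1.05 and 1.07, and over all peaks 0.754, 1.04, 1.10 and 1.07. In ΔLINC00662 the H3K9me3 ratios were 0.332, 0.881, 1.25 and 1.16 in the cluster and 0.237, 0.546, 1.03 and 1.15 over all peaks. In each comparison the knockdown list was shorter than NC among peaks poor in GC and longer among peaks rich in GC. Of the H3K27me3 NC peaks, 17.4% of the cluster and 53.2% of the whole list were below 45% GC, and of the H3K9me3 NC peaks 7.25% and 33.0%. A GC bias of the libraries and a change in the mark cannot be told apart in these ratios from peak lists, and the part of GC content in the difference between cluster and list was not tested.

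**Figure D4:**
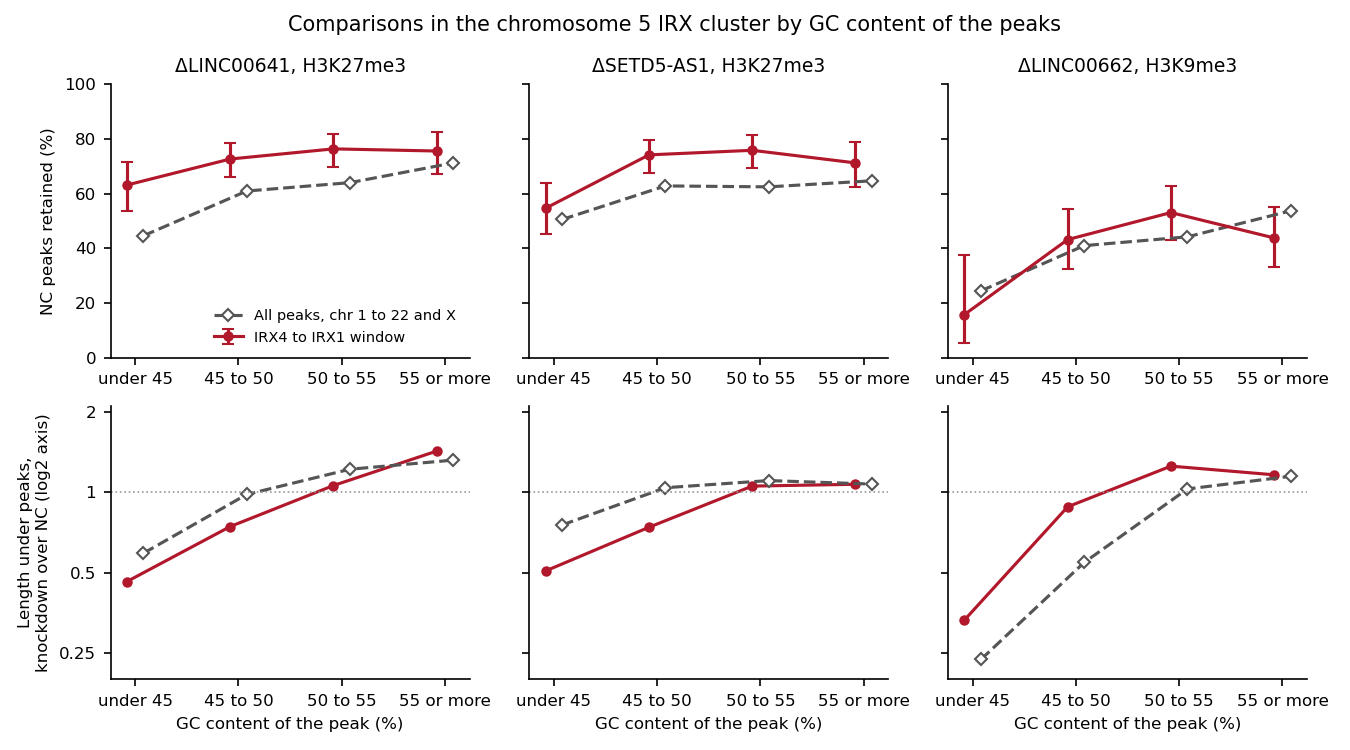
Share of NC peaks retained (upper, percent, with Wilson 95% intervals for counting error) and length under peaks in the knockdown over NC (lower, log2 axis) in 4 bands of peak GC content (percent), for the chromosome 5 IRX window (filled) and all peaks of chromosomes 1 to 22 and X (open). The lower lines are below 1 in the lowest band and above 1 in the highest, with 0.463 and 1.42 for ΔLINC00641 in the window. Into the highest band, the ΔLINC00662 window line falls from 1.25 to 1.16. The ΔSETD5-AS1 line of all peaks falls there from 1.10 to 1.07. The upper H3K27me3 window points lie above the open ones in each band.

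Retention was also set beside that of all peaks within bands of GC content, where the denser coverage of the cluster, described above, applies as well. In ΔLINC00641 it was 63.2% (53.7 to 71.8%) against 44.7% below 45% GC, 72.7% (66.1 to 78.5%) against 61.0% from 45 to 50%, 76.4% (69.9 to 81.9%) against 64.1% from 50 to 55%, and 75.7% (67.1 to 82.6%) against 71.3% at 55% or more, where the interval held the value of all peaks. In ΔSETD5-AS1 it was 54.7% (45.2 to 63.9%) against 50.6%, 74.2% (67.7 to 79.8%) against 62.9%, 75.9% (69.4 to 81.4%) against 62.5%, and 71.3% (62.5 to 78.8%) against 64.8%, and the intervals of the lowest and highest bands held the value of all peaks. For H3K9me3 in ΔLINC00662 the cluster was not above the list in every band, with 15.8% against 24.5%, 43.2% against 41.0%, 53.1% against 44.2% and 43.8% against 53.8%, and each interval held the value of all peaks. The H3K27me3 length ratio was lower in the cluster than over all peaks in 3 of 4 bands for ΔLINC00641 and in 4 of 4 for ΔSETD5-AS1, although in the highest band of ΔSETD5-AS1 both were 1.07. The H3K9me3 ratio was higher in the cluster in 4 of 4 bands, with 1.16 and 1.15 in the highest.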

How the data were processed

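H3K27me3 and H3K9me3 ChIP-seq lists of HEK293T cells were used, and groups were read from the sample titles. Per the methods of the study and the submitters' processing notes, reads were trimmed (cutadapt 3.3) and aligned to hg19 (Bowtie2 2.4.2), duplicates were taken out (GATK), and peaks were called against input with MACS2 2.2.7.1 after the 3 replicates of each group had been merged. For each peak the authors deposited the fold enrichment (a ratio), the −log10 p-value and the summit position. The authors also deposited the −log10 q-value, used here as a score of peak strength.

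The fragments at the summit and the local input were solved from fold enrichment and p-value together. Whole fragments resulted, within 0.001 in −log10 p, for 99.9% to 100% of the peaks of each list. The genome-wide level, taken as the lowest local input found, was the only measure of depth here. It was 3.85 fragments for H3K27me3 NC, 3.78 for ΔLINC00641, 4.43 for ΔSETD5-AS1, 4.29 for H3K9me3 NC and 3.50 for ΔLINC00662. Median summits held 18 to 22 fragments, so single peaks are imprecise. Genes were taken from GENCODE 44 lifted to GRCh37 and sequences from GRCh37, whose chromosomes have hg19 coordinates.

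The members and gene lists were chosen with earlier results of these data known. The text names the IRX genes, other genes of the windows with a peak within 1 kb of the start site, the strongest peak of each window and list, the strongest lost and new peak of each comparison, other TALE genes with a peak (1 gene and some sequences are not reported here), and the 3 genes most like each IRX gene. Peaks around the IRX start sites, and MRPL36, NDUFS6, MMP2, CRNDE and MEIS3, were added after their values were seen. Pairs consisted of an NC peak and a knockdown peak that overlapped only one another. The settings varied were the minimum −log10 q, the number of strongest peaks, the overlap required, joining of peaks, the flanks and the highest local input. Calculations used Python 3.11.15 with scipy 1.17.1, pandas 2.3.3, numpy 2.4.6, pysam 0.24.0 and matplotlib 3.10.9, and the functions were tested on simulated data.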

Additional observations from a re-analysis of the deposited data

How the results depend on the processing

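No paired analysis was possible because each condition was deposited as 1 peak list called on merged replicates, and leaving out each replicate was not possible for the same reason. Of 107 alternative values for 30 results, 67 stayed close to the reported value, 35 moved away from it and 5 changed direction. The 35 were 17 retained shares, 17 shares of the 20 kb around a start site and 1 covered length ratio. The retained shares among them lay outside the Wilson interval of the reported share, whereas no interval was calculated for the others.

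On chromosome 5, when both lists were limited to peaks whose −log10 q reached 5, the retained share was 56.9% in ΔLINC00641, 47.0% in ΔSETD5-AS1 and 25.9% in ΔLINC00662. When only the NC list was so limited it was 85.8%, 85.3% and 62.1%, so the shares fall or rise with the list that is thinned. With an overlap of at least 50% of the NC peak they were 53.3%, 51.3% and 33.6%, and with peaks within 1 kb joined the ΔSETD5-AS1 share was 74.7%. The covered length ratio stayed below 1 for ΔLINC00641 and ΔSETD5-AS1. For ΔLINC00662 it was 0.833 among peaks whose −log10 q reached 5 and 1.65 with equal numbers of the strongest peaks, so its direction depended on this choice, and the median log2 ratio was -0.055 among such peaks. For ΔLINC00641 the median log2 ratio was 0.10 when fragments, scaled to the genome-wide level, replaced fold enrichment. The cause was not tested.

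On chromosome 16, when both lists were so limited, covered length ratios and retained shares of H3K27me3 were 0, since the knockdown lists held no such peak. With only the NC list so limited, the share was 100% in both H3K27me3 knockdowns (1 peak) and 50% in ΔLINC00662. With equal numbers of the strongest peaks it was 100% in ΔLINC00641, and with an overlap of 50% it was 25%.

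Depth limits single peaks most. Summits of about 20 fragments carry a counting error that spans most differences between paired peaks.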
